A study of Mus musculus with 22 samples.

Results

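CD8+ T cells from mice carrying a conditional knock-in of Tcaim (KI) and from control mice of the same line (wt) were compared for their response to activation. The quantity examined was a difference of differences on the log2 scale, the change from naive to 48 h in KI minus the same change in wt, here called the interaction. It used 12 of the 22 libraries of the series, 3 in each of the groups KI naive, KI 48 h, wt naive and wt 48 h, all chosen by their labels and none by a measured value. Spleens and lymph nodes were the source of the cells, which were enriched by depleting unwanted cells with magnetic beads. Libraries were made right after isolation (naive) or after culture on plate-bound antibody to CD3 with soluble antibody to CD28 (activated). All 6 mice carried the line label Tcaim KI Cd4Cre. KI mice had the genotype label hocre and wt mice wtcre, so the controls shared the Cre label. Cre driven by the Cd4 promoter acts in developing T cells, which include the precursors of CD8+ cells. Each mouse gave its own naive, 24 h and 48 h libraries, and the labels place 1 KI and 1 wt mouse in each of the experiments 1, 3 and 5. The mice of experiments 1 and 3 were male and those of experiment 5 female.

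Tcaim encodes a mitochondrial protein whose name, T cell activation inhibitor, mitochondrial, comes from its effect on activated T cells. When the T cell receptor and CD28 are engaged, a naive CD8+ T cell leaves quiescence, grows, divides and builds membranes. Growth draws on the mevalonate pathway, a chain of enzymes that turns acetyl-CoA into isoprenoids and, after squalene, into cholesterol. Its genes are switched on together by the transcription factor SREBP2 when sterol in the endoplasmic reticulum is low. Interferon-stimulated genes form another co-regulated group. Type I interferon acts through a transcription factor complex that contains STAT2 on interferon-stimulated response elements, and naive T cells show a resting level of these genes.

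Libraries of the 4 groups held 62551905 to 85714163 counts. In a principal component analysis of the 12 libraries the first component (69.4% of variance) separated naive from 48 h libraries. The naive libraries lay between -110.6 and -102.1 on it. At 48 h the KI libraries lay at 84.55, 91.07 and 99.96 and the wt libraries at 131.1, 116.7 and 112.3 in experiments 1, 3 and 5, so all 3 KI libraries lay nearer to the naive libraries. Summed CPM (counts scaled to the same effective library size) of 8 CD8+ T cell genes, Cd8a, Cd8b1, Cd3d, Cd3e, Cd3g, Cd247, Lck and Trac, was 5537 to 6537 in naive and 3172 to 3965 in 48 h libraries. T cell transcripts were thus present in all 12, and a sum over the 8 genes does not tell CD8+ from other T cells. The mitochondrial share of counts was 3.685% in the wt naive library of experiment 5 and 1.98% to 2.83% in the other 11.

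Tcaim itself (GRCm38, as are all positions here, chr9:122805539-122836334, plus strand, ENSMUSG00000046603) was expressed at 15.2, 14.6 and 14.7 CPM in the naive wt libraries of experiments 1, 3 and 5 and at 138, 145 and 141 CPM in the naive KI libraries. At 48 h the wt libraries held 9.20, 11.98 and 9.04 CPM and the KI libraries 233, 229 and 260.0 CPM. KI libraries were above wt at both times with no overlap, as the labels imply. Tcaim changed by -0.56 (log2) on activation in wt and by 0.77 in KI. The interaction was 1.33 (SE 0.259, edgeR quasi-likelihood adjusted p 0.0286), with 1.47, 0.95 and 1.58 within the 3 experiments. Transcripts of the knock-in allele and of the endogenous locus cannot be told apart in a count over the gene.

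Of 21183 tested genes, edgeR called 82 (0.387%) with a different response to 48 h of activation in KI and wt at an adjusted p under 0.05. A total of 29 (0.137%) had a higher response in KI and 53 (0.250%) a lower one. All 82 had the same sign in the 3 experiments. The responses of the 3 KI mice and the 3 wt mice did not overlap in any of the 82 (4400 of all tested genes, 20.8%), which follows in large part from how they were called. At 48 h itself 884 genes (4.17%) differed between KI and wt, 483 higher (2.28%) and 401 lower (1.89%) in KI, and in naive cells 24 did (0.113%), all higher. Before adjustment 2054 genes (9.70%) had a p under 0.05. Activation itself called 11929 genes (56.3%) in wt and 10303 (48.6%) in KI. The plot of KI against wt responses shows 3 sets among the called genes. Called interferon-stimulated genes fell in KI, while in wt they fell less, were not called or, in Bst2, rose. Called cholesterol synthesis genes rose in wt, and in KI they rose less or were not called. A further set, P2rx7, Ccr9 and Cxcr6 among it, fell in wt and fell less or was not called in KI. In bulk RNA, fewer cells with a transcript and less of it per cell cannot be told apart.

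**Figure D1:**
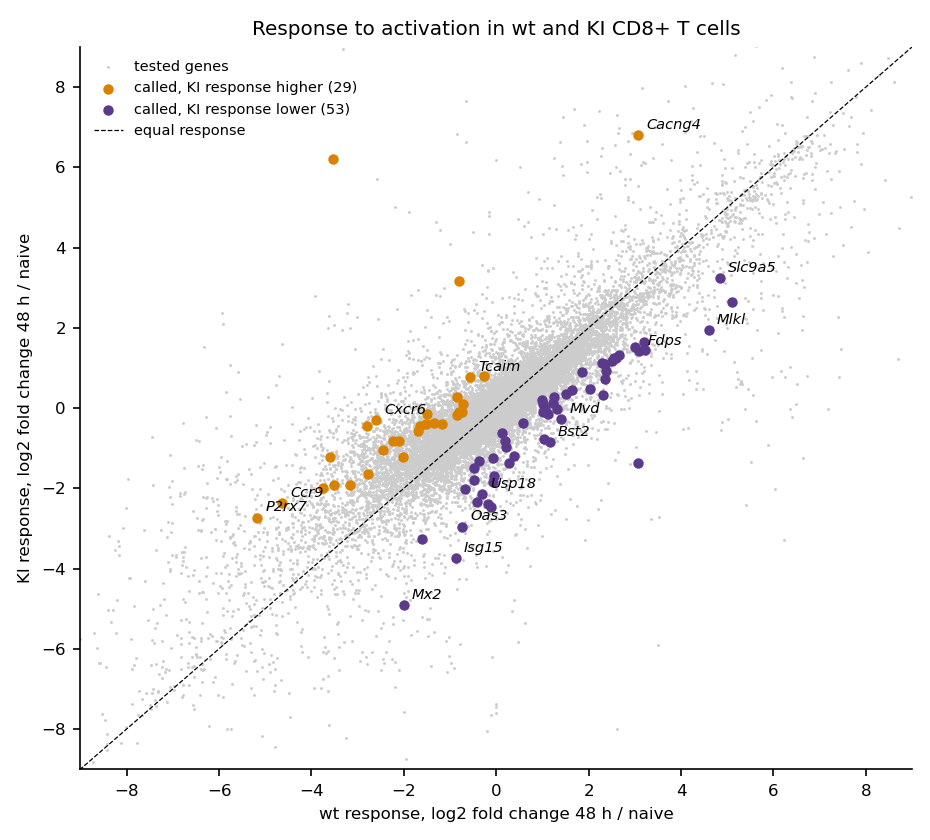
Log2 fold change from naive to 48 h in KI (vertical axis) against wt (horizontal axis) for the tested genes within the axes, with the 29 genes called higher in KI in orange, the 53 called lower in purple and equal responses on the dashed line. Isg15, Mx2 and Oas3 lie below the line on the side of genes that fell, Mvd and Fdps below it on the side of genes that rose in wt, and P2rx7, Ccr9 and Cxcr6 above it on the side of genes that fell.

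With 3 mice a group the number called depended on single mice and on how the pairing was used. Without the KI mouse of experiment 1 a single gene was called, Oas3, and without the wt mouse of that experiment 3 were, Oas3, Mvd and Dhx58. Without the KI or the wt mouse of experiment 3 the counts were 13 and 98, and without those of experiment 5 they were 2 and 35. Oas3 was the only gene called in all 6 of these fits. No called gene moved by more than 1.5 times on the log2 scale in any of them. Using the labelled pairing, with mouse and experiment at each time as blocks, edgeR called 869 of 20228 genes (4.30%), 541 higher (2.67%) and 328 lower (1.62%), and all 82 genes were among them. That fit left out the libraries labelled KO. It had far fewer residual degrees of freedom than the 14 of the fit that called 82.

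**Figure D2:**
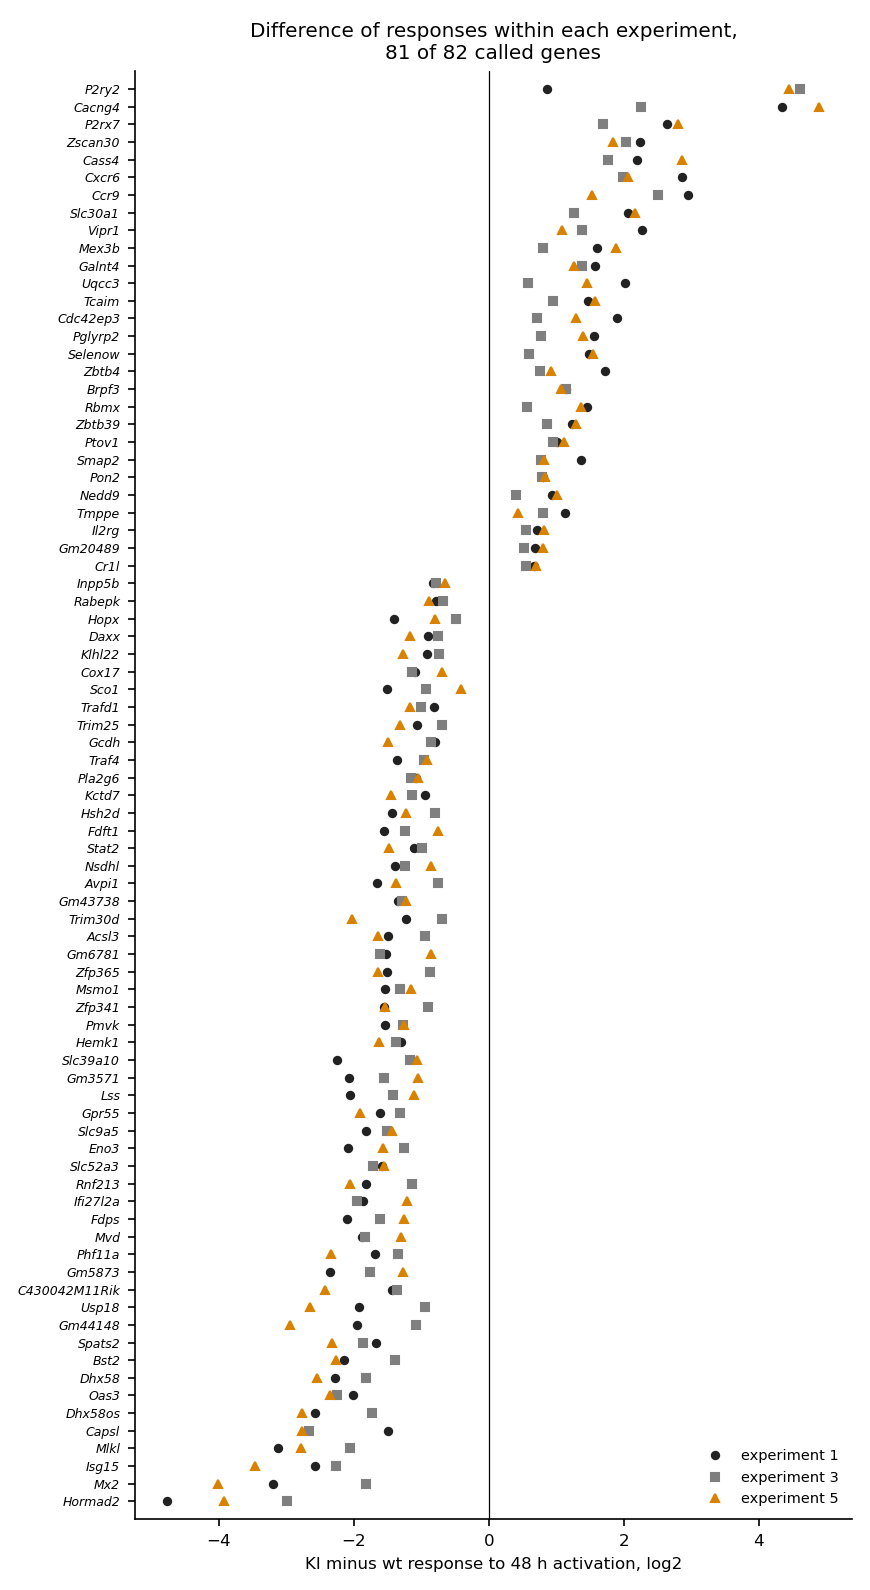
Difference between the KI and the wt response (log2, horizontal axis) in experiment 1 (circles), 3 (squares) and 5 (triangles) for 81 of the 82 called genes, ordered by the fitted interaction, with Pappa2 left out because most of its libraries hold 0 or 1 counts. Every gene has its 3 experiments on the same side of 0, and experiment 3 lies nearest to 0 in many of them.

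Most interferon-stimulated genes fell with activation in KI, and 9 had a lower response in KI than in wt. Of 38 listed genes, 34 were called lower at 48 h than in naive cells in KI and 22 in wt, against 22.1% and 26.8% of all tested genes. In the interaction 9 were called lower and 0 higher, against 0.250% and 0.137% of all tested genes. With the pairing as a block 20 were called lower and 1 higher, against 1.62% and 2.67% of all genes tested in that fit. The list had a median interaction of -1.09, from a median response of -0.87 in wt and -2.39 in KI, and 36 of its 38 genes lay below 0. Median interaction over all tested genes was 0.00. Within experiments 1, 3 and 5 the list's median was -0.92, -0.68 and -1.65. Before activation the list was higher in KI, by a median of 1.36, and at 48 h the median difference was 0.22. At 48 h 5 of its genes were called higher in KI than in wt and 3 lower, against 2.28% and 1.89% of all tested genes. Of the 38, 12 were called higher in naive KI cells, against 0.113% of all tested genes. Without the KI or the wt mouse of experiment 1 the count of 9 fell to 1 and 2, without those of experiment 3 it was 3 and 7, and without those of experiment 5 it was 1 and 7. The median was -0.66 without the wt mouse of experiment 5. The list was chosen with results of these samples known, so its direction is a description.

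Promoter sequences were examined for an element known from interferon-stimulated genes. The interferon-stimulated response element was searched as GAAANNGAAA, a pair of GAAA with 2 bases between, on both strands of the 300-base RefSeq windows (250 bases before to 50 after a start site, GRCm38.p6). Of the 9 called genes 5 had a window, and all 5 windows held a match. Over the list 19 of 31 windows did, for 17 of 27 matched genes, against 1131 of 32851 windows (3.44%) over all. The 3 stretches below run from 170 bases to 1 base before the start site, 5′ to 3′ on the gene's strand, with the matches in capitals, and were chosen to show a single match, 2 overlapping matches and 3 overlapping matches. They are Oas3 (chr5:120777660-120777829, minus strand), Bst2 (chr8:71537473-71537642, minus strand) and Isg15 (chr4:156200819-156200988, minus strand).
Oas3: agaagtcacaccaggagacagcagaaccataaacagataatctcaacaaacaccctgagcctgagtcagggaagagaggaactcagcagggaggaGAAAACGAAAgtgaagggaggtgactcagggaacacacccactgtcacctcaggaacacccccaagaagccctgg
Bst2: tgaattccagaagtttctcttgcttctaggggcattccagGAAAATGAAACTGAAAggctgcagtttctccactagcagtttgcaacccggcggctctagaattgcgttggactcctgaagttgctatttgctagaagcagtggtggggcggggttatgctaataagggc
Isg15: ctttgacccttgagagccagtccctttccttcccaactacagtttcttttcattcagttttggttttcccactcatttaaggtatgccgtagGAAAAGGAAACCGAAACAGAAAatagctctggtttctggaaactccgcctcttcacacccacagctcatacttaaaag
With the start site at 0, the matches began at position -75 in Oas3, at -130 and -124 in Bst2 and at -78, -72 and -66 in Isg15. The other called genes with a window were Phf11a, with a match at -29, and Stat2, with a match at -222 on the opposite strand. A match is a description of the sequence and not a measured binding site.

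Oas3, an oligoadenylate synthetase that answers double-stranded RNA (chr5:120753098-120777661, minus strand, ENSMUSG00000032661), had the smallest p of the whole interaction. Naive wt libraries held 60.6, 72.5 and 57.7 CPM in experiments 1, 3 and 5 and naive KI libraries 186, 182 and 193 CPM. At 48 h wt held 33.6, 48.4 and 32.6 CPM and KI 25.5, 25.5 and 21.2 CPM. Every KI library was above every wt library before activation and below every wt library after 48 h. Oas3 changed by -0.74 in wt and -2.96 in KI, and the interaction was -2.22 (SE 0.228, edgeR adjusted p 0.00021), with -2.01, -2.25 and -2.36 within experiments.

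Bst2, which encodes tetherin, a membrane protein that holds budding virus at the cell surface (chr8:71534255-71537456, minus strand, ENSMUSG00000046718), moved in opposite directions. Naive libraries held 47.99, 49.6 and 51.4 CPM in wt and 94.6, 100.1 and 104 CPM in KI. At 48 h they held 108, 69.1 and 155 CPM in wt and 47.95, 53.1 and 64.7 CPM in KI. Bst2 rose by 1.16 in wt (adjusted p 0.000236) and changed by -0.85 in KI (adjusted p 0.0039), an interaction of -2.00 (SE 0.313, adjusted p 0.00901). The KI libraries at 48 h overlapped the naive wt libraries.

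Usp18, the protease that removes ISG15 from proteins and restrains the interferon receptor, had 52.1, 61.6 and 46.2 CPM in naive wt and 168, 161 and 175 CPM in naive KI libraries. At 48 h it had 42.95, 33.96 and 51.3 CPM in wt and 36.4, 45.9 and 31.1 CPM in KI. The groups separated before activation and overlapped after it, and the interaction was -1.84 (SE 0.251, adjusted p 0.0036). The KI minus wt difference was 1.66 in naive cells and -0.18 at 48 h. Gm44148, a lincRNA on the opposite strand whose exons overlap those of Usp18, had an interaction of -1.93, and reads of the pair cannot be told apart without strand. Isg15, the ubiquitin-like modifier itself, had 16.5, 22.2 and 18.9 CPM in naive wt, 61.96, 63.03 and 72.95 CPM in naive KI, 7.68, 7.64 and 16 CPM in wt at 48 h and 4.79, 4.49 and 5.59 CPM in KI at 48 h. Its interaction was -2.86 (SE 0.592, adjusted p 0.0428). Like Oas3, it stood above wt before activation and below wt after it in every library. For Isg15 neither difference was called (edgeR adjusted p 0.186 in naive cells and 0.17 at 48 h), while for Oas3 both were (0.000139 and 0.0239).

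Dhx58, which encodes the RNA sensor LGP2, had an interaction of -2.22 (SE 0.293, adjusted p 0.00305), with a response of -0.18 in wt and -2.40 in KI. Dhx58os on the opposite strand overlaps it and had -2.35. Mx2, a dynamin-like antiviral GTPase annotated as a polymorphic pseudogene, had the largest interaction of the list at -2.90 (SE 0.536, adjusted p 0.0211). It changed by -2.01 in wt and -4.91 in KI. Stat2, a subunit of the factor that binds the response element, had 83.7, 97.6 and 78.5 CPM in naive wt and 149, 141 and 131 in naive KI, against 95.9, 94.5 and 109 in wt and 78.96, 68.6 and 65.5 in KI at 48 h. Its interaction was -1.19 (adjusted p 0.0303). The remaining called members were Phf11a (-1.78) and Ifi27l2a (-1.65). Several listed genes fell steeply in both genotypes and were not called, among them Oas2 (-4.76 in wt and -5.61 in KI), Slfn5 (-4.76 and -5.17) and Ddx58 (-2.36 and -2.38).

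Other called genes outside the list had a like course. Rnf213, a giant ubiquitin ligase, was at 979, 1202 and 771 CPM in naive wt and 2508, 2252 and 1905 CPM in naive KI, and at 357, 302 and 309.8 and 259, 258 and 183 CPM at 48 h. Its interaction was -1.65 (SE 0.313, adjusted p 0.0255). Trim25, a ubiquitin ligase of the RIG-I pathway, had an interaction of -1.01 (adjusted p 0.00734), with no called change in wt (0.18) and -0.83 in KI. Trim30d (-1.30), the histone chaperone gene Daxx (-0.94), Trafd1 (-1.002), the adaptor gene Hsh2d (-1.17) and Zfp365 (-1.33) were likewise higher in naive KI libraries and close to wt or below it at 48 h. These genes were grouped here after their values were seen.

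**Figure D3:**
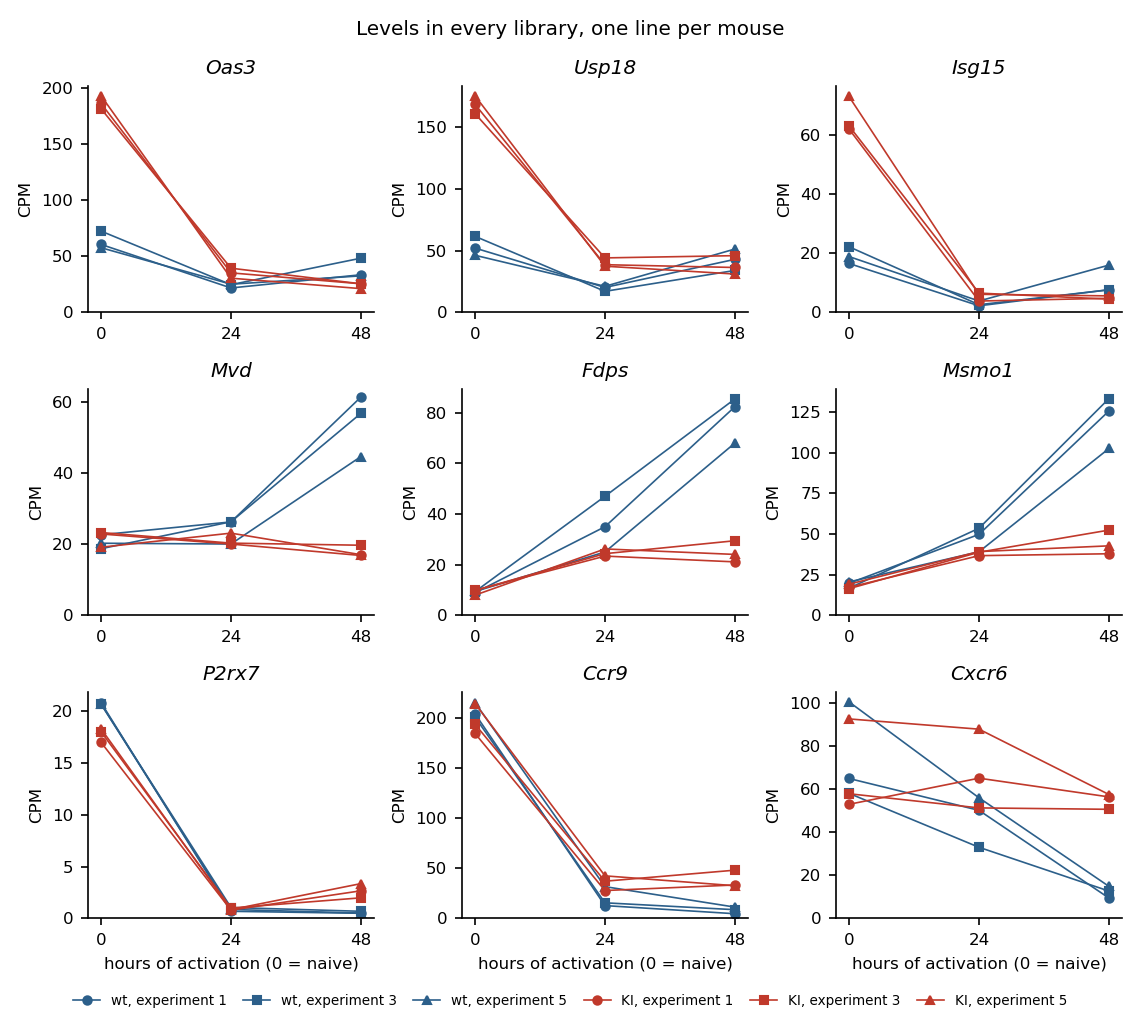
CPM of 9 called genes in every library at 0 h (naive), 24 h and 48 h (horizontal axis), with 1 line per mouse, wt in blue and KI in red. Oas3, Usp18 and Isg15 start higher in KI and stand nearer to wt at 24 h, with Oas3 and Isg15 below wt at 48 h, Mvd, Fdps and Msmo1 start together and end lower in KI, and P2rx7, Ccr9 and Cxcr6 start close together and end higher in KI.

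Most genes of cholesterol synthesis rose with activation, and 7 of them had a lower response in KI than in wt. The first arm, from acetyl-CoA to farnesyl and geranylgeranyl diphosphate, had 8 of 9 genes called higher at 48 h than in naive cells in wt and 6 in KI. The second, from squalene to cholesterol, had 12 of 12 in wt and 9 in KI, beside 29.5% and 26.6% of all tested genes. In the interaction the first arm had 3 of 9 genes called lower and 0 higher. The second had 4 of 12 called lower and 0 higher, beside 0.250% and 0.137% of all tested genes. With the pairing as a block 7 of 9 and 10 of 12 were called lower, against 1.62% of all genes tested in that fit. All 21 genes lay below 0. The first arm had a median response of 2.39 in wt and 1.24 in KI, and a median interaction of -1.01 (-1.28, -1.05 and -1.03 within experiments 1, 3 and 5). The second had 1.89 in wt, 0.77 in KI and a median interaction of -0.99 (-1.38, -0.79 and -0.69). In naive libraries the medians of the KI minus wt difference were 0.02 and -0.01, and at 48 h they were -0.985 and -0.998. Without the KI mouse of experiment 1 no gene of the 2 arms was called, and their medians were -0.95 and -0.86. Without the KI mouse of experiment 5 the counts were 1 and 0, and without the wt mouse of experiment 1 they were 1 and 0. The count of the second arm was 2 without the KI or the wt mouse of experiment 3.

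Promoters of these genes were searched for the sterol regulatory element TCACNCCAC and for the CCAAT box, which binds NF-Y, a partner of SREBP at sterol genes. Of the 7 called genes 5 had RefSeq windows, 6 in all. None of the 6 held the sterol element, which was in 1 of 19 windows over the 2 lists (Hmgcs1) and in 408 of 32851 windows (1.24%) over all. A CCAAT box was in 5 of the 6 windows and in 15 of 19 over the lists, against 12289 of 32851 (37.4%) over all. No match says only that these letters are not in this window. The 2 stretches below, again from 170 bases to 1 base before the start site with CCAAT or its complement ATTGG in capitals, belong to Mvd (chr8:122443423-122443592, minus strand) and Msmo1 (chr8:64733579-64733748, minus strand), a called gene from each arm.
Mvd: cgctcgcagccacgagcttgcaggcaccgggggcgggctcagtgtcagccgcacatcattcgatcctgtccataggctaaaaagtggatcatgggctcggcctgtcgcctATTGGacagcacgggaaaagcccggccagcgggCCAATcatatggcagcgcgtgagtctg
Msmo1: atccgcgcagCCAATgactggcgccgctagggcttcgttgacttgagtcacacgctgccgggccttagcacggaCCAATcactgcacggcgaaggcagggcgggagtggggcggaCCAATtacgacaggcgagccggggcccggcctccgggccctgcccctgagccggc
The boxes began at -60 and -27 in Mvd, the first on the opposite strand, and at -160, -96 and -55 in Msmo1.

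Mvd, mevalonate diphosphate decarboxylase, makes isopentenyl diphosphate, the unit of all isoprenoids (chr8:122433601-122443422, minus strand, ENSMUSG00000006517). Naive libraries held 22.7, 18.8 and 20.3 CPM in wt and 22.9, 23.3 and 19.2 CPM in KI, with overlap. At 48 h wt held 61.4, 56.8 and 44.7 CPM and KI 16.9, 19.7 and 17.1 CPM, so the level was above naive in all 3 wt mice and below it in all 3 KI mice. The response was 1.40 in wt and -0.28 in KI, the latter not called (adjusted p 0.1). The interaction was -1.68 (SE 0.198, edgeR adjusted p 0.000843), with -1.88, -1.84 and -1.30 within experiments.

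Fdps, farnesyl diphosphate synthase (chr3:89093588-89101959, minus strand, ENSMUSG00000059743), rose in both. It went from 8.96, 9.38 and 9.46 CPM to 82.4, 85.5 and 68.05 CPM in wt and from 9.90, 9.86 and 8.01 CPM to 21.1, 29.5 and 24.1 CPM in KI. The KI libraries at 48 h were all above naive and all below wt, and the interaction was -1.66 (SE 0.253, adjusted p 0.00734). Gm43738, a gene model on the same strand that shares exons with Fdps, had an interaction of -1.29, and counts of the pair are uncertain. Pmvk, phosphomevalonate kinase, which acts just before Mvd, went from 10.8, 11.1 and 11.1 to 65.1, 68.4 and 64.4 CPM in wt and from 10.7, 11.1 and 10.8 to 22.2, 28.4 and 26.2 CPM in KI. Its 6 naive libraries lay between 10.7 and 11.1 CPM, and its interaction was -1.35 (SE 0.196, adjusted p 0.00581).

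In the second arm Fdft1, squalene synthase, the first enzyme committed to sterols, went from 19.02, 19.1 and 23.6 to 101, 104 and 96.2 CPM in wt and from 21.6, 21 and 18.5 to 39.04, 48.7 and 44.9 CPM in KI. Its interaction was -1.17 (SE 0.168, adjusted p 0.00547), and Ctsb overlaps it on the opposite strand. Msmo1, the methylsterol monooxygenase, went from 19.8, 16.8 and 20.6 to 126, 133 and 103 CPM in wt and from 17.3, 16.4 and 19.2 to 37.9, 52.5 and 42.8 CPM in KI, an interaction of -1.33 (SE 0.222, adjusted p 0.0102). Both genes rose in every mouse, to a lower level in every KI mouse. Lss, lanosterol synthase, closes the sterol rings and rose by 2.02 in wt, with 0.47 in KI that was not called (adjusted p 0.0783). Its interaction was -1.55 (adjusted p 0.0303). Nsdhl, a sterol dehydrogenase of the demethylation steps, had an interaction of -1.19 (adjusted p 0.0436).

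Uncalled members of the arms had interactions from -1.21 (Acat2) to -0.10 (Ebp). Hmgcs1, which makes HMG-CoA, had -0.97 (adjusted p 0.25), the squalene epoxidase gene Sqle -0.92 (0.358) and Cyp51 -1.05 (0.137). Ggps1, which makes the geranylgeranyl branch, was not called in wt (-0.15) or KI (-0.27). Around the pathway, 0 of 17 genes of sterol sensing, uptake and efflux were called. With the pairing as a block 5 were called lower, against 1.62% of all genes tested in that fit. Among them were Stard4, a sterol carrier (-0.85), Insig1, which holds SREBP in the endoplasmic reticulum (-1.08), Lrp8 (-1.16) and Srebf1 (-0.80). For Stard4 the edgeR adjusted p was 0.0883, and 0.00437 with the block, within a range of 0.00437 to 1 over its alternatives. Srebf2, which encodes SREBP2, had -0.42 (adjusted p 0.646). The efflux genes Abca1 and Abcg1, which are targets of the sterol-sensing LXR receptors, had 0.40 and 0.38 and were not called either.

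In fatty acid synthesis and activation 1 of 20 tested genes was called lower, against 0.250% of all tested genes. This was Acsl3, an acyl-CoA synthetase of lipid droplets. It went from 9.05, 9.14 and 8.35 to 50.3, 55.9 and 49.8 CPM in wt and from 8.10, 9.03 and 8.32 to 15.9, 28.7 and 15.8 CPM in KI, an interaction of -1.31 (SE 0.270, adjusted p 0.0418). With the block 3 were called, all lower, against 1.62% of all genes tested in that fit. The list's median interaction was -0.46. Acsl3 shares exons with Utp14b on the same strand.

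**Figure D4:**
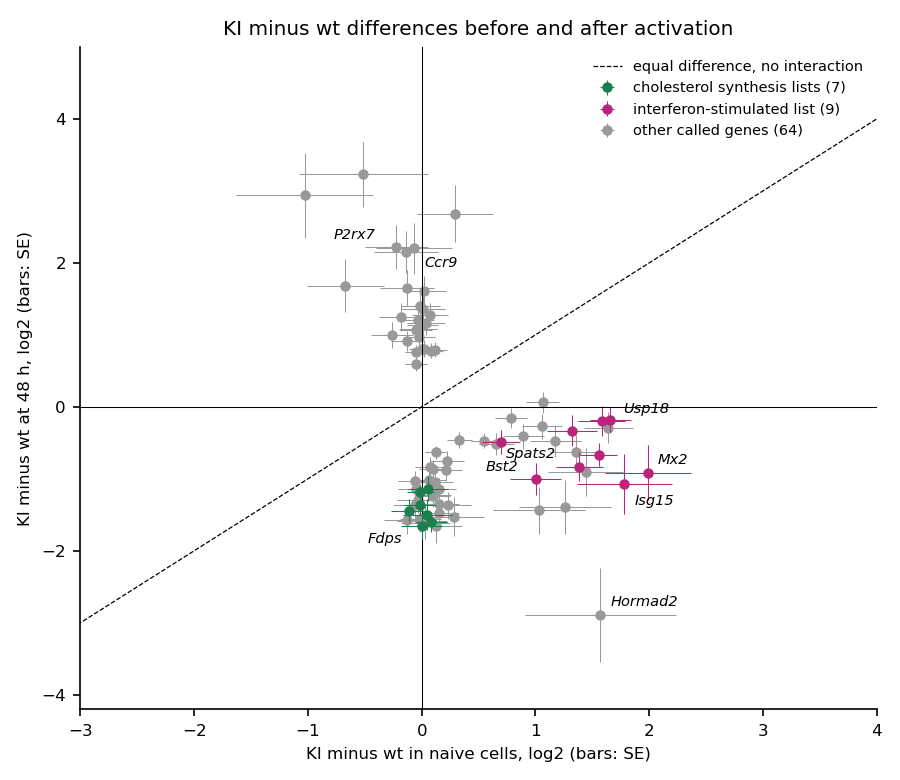
KI minus wt difference at 48 h (vertical axis) against the same difference in naive cells (horizontal axis), both log2 with SE bars, for 80 of the 82 called genes, without Tcaim, the altered gene, and Pappa2, which rests on few counts. The 7 cholesterol genes stand at -0.11 to 0.08 on the naive axis and at -1.66 to -1.14 at 48 h, the 9 interferon-stimulated genes stand at 0.70 to 1.99 on the naive axis, and a point on the dashed line would have no interaction.

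Further genes rose in wt and less in KI. Slc39a10, a zinc importer, went from 19.8, 23.2 and 18.97 to 211, 162 and 129 CPM in wt and from 22.9, 22.9 and 23.2 to 50.9, 70.9 and 75.05 CPM in KI, an interaction of -1.502 (SE 0.248, adjusted p 0.00987). Eno3, an enolase best known from muscle, went from 25.4, 25.7 and 25.4 to 163, 126 and 104 CPM in wt and from 27.7, 30.4 and 27.04 to 41.7, 62.04 and 37.3 CPM in KI, an interaction of -1.63 (SE 0.249, adjusted p 0.00734). It was the only called gene of 23 in glycolysis and transport, against 0.250% of all tested genes called lower. On activation 20 of the 23 were called higher in wt and 21 in KI, beside 29.5% and 26.6% of all tested genes. The list had a median interaction of -0.01. That median was -0.12 to 0.28 with 1 mouse left out. Slc9a5, a sodium-proton exchanger, rose by 4.83 in wt and 3.23 in KI, an interaction of -1.60. Mlkl, the pore-forming effector of necroptosis, had 0.400, 0.831 and 0.871 CPM in naive wt and 1.53, 1.42 and 2.06 in naive KI, and 14.9, 15.1 and 20.8 and 6.2, 6.11 and 7.03 CPM at 48 h. Its order reversed with activation, with KI above wt in every naive library and below wt in every 48 h library (interaction -2.65, SE 0.555, adjusted p 0.0436). The naive difference was not called, and that at 48 h was (edgeR adjusted p 0.0444). Spats2 had the same order, with 1.42, 1.08 and 1.17 CPM in wt and 3.00, 3.01 and 3.43 in KI before activation and 5.57, 5.26 and 7.32 in wt and 3.65, 3.94 and 4.20 in KI at 48 h. Capsl had 0.129, 0.0742 and 0.0792 CPM in naive wt and 0.178, 0.217 and 0.192 in naive KI, then 3.23, 2.27 and 4.54 and 1.49, 0.852 and 1.36 CPM, an interaction of -2.47 (SE 0.522, adjusted p 0.0436).

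Genes with mitochondrial products were among them. Cox17 and Sco1, which hand copper to cytochrome oxidase, had interactions of -0.97 and -0.98 (adjusted p 0.0436 and 0.0483). Gcdh, a mitochondrial dehydrogenase of lysine breakdown, rose by 1.06 in wt and had -0.02 in KI, an interaction of -1.08. Hemk1, a mitochondrial methyltransferase of translation release factors, rose by 2.37 in wt and 0.93 in KI. In contrast, Uqcc3, an assembly factor of complex III, fell by 1.504 in wt with -0.16 in KI, an interaction of 1.34. Zfp341, the zinc finger factor known to drive STAT3 transcription, went from 8.71, 9.27 and 7.95 to 24.1, 18.1 and 22.4 CPM in wt and from 8.39, 9.45 and 9.90 to 7.86, 9.84 and 9.58 CPM in KI, a rise in each wt mouse beside nearly flat KI values (interaction -1.34, adjusted p 0.00987). Traf4 (-1.09), the phospholipase gene Pla2g6 (-1.09), Avpi1 (-1.27), Kctd7 (-1.16), Hopx (-0.90) and Rabepk (-0.80) had the same form. Gpr55, a lysophospholipid receptor, and Slc52a3, a riboflavin transporter, were not called in wt and fell in KI, by 1.203 and 1.36, with interactions of -1.59 and -1.64. Inpp5b, an inositol phosphatase, did likewise with the smallest change in this direction (-0.75, adjusted p 0.0145). Klhl22, an adaptor of a ubiquitin ligase, was called in opposite directions, 0.58 in wt and -0.38 in KI. The lincRNA C430042M11Rik was too (1.04 and -0.76). Processed pseudogenes Gm3571, Gm5873 and Gm6781, copies of spliced transcripts whose reads may come from their parent genes, had -1.55, -1.78 and -1.32 and are uncertain.

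In the other direction, 24 of the 29 genes with a higher response in KI shared a form. They were called lower at 48 h in wt, and in KI they fell less or were not called. Over all tested genes 26.8% were called lower in wt. The wt response is part of the interaction, so this count is a description. Tcaim and Pappa2 were also called lower in wt but were called higher in KI. Several of the 24 encode receptors. P2rx7, a channel opened by extracellular ATP (chr5:122643911-122691432, plus strand, ENSMUSG00000029468), fell from 20.8, 20.7 and 20.7 CPM to 0.501, 0.693 and 0.523 CPM in wt and from 16.99, 18.01 and 18.3 CPM to 2.67, 1.99 and 3.36 CPM in KI. The wt and KI libraries at 48 h did not overlap, and the interaction was 2.44 (SE 0.410, edgeR adjusted p 0.0103). At 24 h both genotypes were at or near 1 CPM (0.693, 1.06 and 0.868 in wt, 0.806, 1.00 and 0.854 in KI).

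Ccr9, the receptor for the gut and thymus chemokine CCL25 (chr9:123678439-123784330, plus strand, ENSMUSG00000029530), fell from 204, 201 and 216 to 4.74, 8.77 and 11.3 CPM in wt and from 185, 194 and 215 to 33.5, 48.2 and 32.7 CPM in KI, an interaction of 2.27 (SE 0.479, adjusted p 0.0436). It shares exons with Gm17200 on its strand. Cxcr6, the receptor for CXCL16, fell from 64.95, 58.1 and 101 to 9.46, 12.7 and 14.9 CPM in wt, while KI went from 52.96, 57.9 and 92.6 to 56.4, 50.6 and 57.5 CPM, a response that was not called (adjusted p 0.386). The interaction was 2.29 (SE 0.404, adjusted p 0.0151). Experiment 5 had the highest naive level in both genotypes, and the 48 h groups were apart in all experiments. Vipr1, a receptor of vasoactive intestinal peptide, fell from 139, 140.1 and 119 to 9.38, 11.99 and 13.5 CPM in wt and from 139, 145 and 120.1 to 45.4, 32.5 and 28.8 CPM in KI (1.59, SE 0.280, adjusted p 0.0145). Il2rg, the shared receptor chain for IL-2, IL-7 and IL-15, fell from 821, 787 and 837 to 478, 450.2 and 472 CPM in wt and went from 841, 868 and 879 to 805, 725 and 877 CPM in KI (0.70, SE 0.148, adjusted p 0.0439). It was the only called gene of 26 activation, checkpoint and cytokine receptors, against 0.137% of all tested genes called higher. Its exons overlap Gm20489 on the same strand.

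Slc30a1, a zinc exporter, fell from 27.9, 29.9 and 29.4 to 2.17, 2.95 and 1.33 CPM in wt and from 24.5, 26.4 and 28.8 to 8.02, 6.26 and 5.91 CPM in KI, an interaction of 1.77 (SE 0.342, adjusted p 0.0262). The importer Slc39a10 had the opposite sign. Pon2, a lactonase of intracellular membranes, had the smallest p in this direction. It fell from 34.3, 37.04 and 38.7 to 22.5, 21.8 and 22.7 CPM in wt and went from 33.9, 36.6 and 35.8 to 38.98, 37.2 and 37.3 CPM in KI, an interaction of 0.81 (SE 0.133, adjusted p 0.00987) and nearly the same in each experiment (0.81, 0.79 and 0.83). Pglyrp2, a peptidoglycan amidase, had 1.24, Brpf3, a reader of histone acetyltransferase complexes, 1.125, and Galnt4, which starts mucin-type glycans, 1.41 (adjusted p 0.00987, 0.0138 and 0.0145). All 3 fell in both genotypes, and Galnt4 lies within exons of Poc1b on the same strand. Rbmx, an RNA-binding protein gene, fell from 81.1, 67.3 and 63.9 to 37.1, 50.1 and 31.3 CPM in wt, whereas KI went from 71.7, 69.7 and 63.5 to 90.2, 77.2 and 80.3 CPM without a call (1.11, adjusted p 0.0182). Selenow, a small selenoprotein, had 1.21, Mex3b, an RNA-binding protein gene, 1.43 and Cass4, a scaffold of focal adhesions, 2.36. Nedd9, which is of the same scaffold family as Cass4, had 0.79. The others were the zinc finger genes Zbtb4 (1.14) and Zbtb39 (1.11), Cdc42ep3, an effector of the GTPase Cdc42 (1.26), Smap2 (0.98), Tmppe (0.79), the complement regulator gene Cr1l (0.64) and Gm20489 (0.67).

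Genes that rose in KI were fewer. Cacng4, an auxiliary subunit of calcium channels and glutamate receptors, was at 0.0867 to 0.285 CPM in the 6 naive libraries and at 0.667, 2.60 and 0.710 CPM in wt and 12.6, 12.2 and 12.5 CPM in KI at 48 h. The KI libraries were alike and all above wt, and the interaction was 3.74 (SE 0.713, adjusted p 0.0255), with 4.35, 2.25 and 4.90 within experiments. The size rests on naive libraries with few counts. Ptov1 rose by 0.79 in KI with -0.26 in wt, which was not called (1.04, adjusted p 0.0255). A further 4 called genes averaged under 1 CPM, so their counts are given and no fold. Pappa2 had 1, 1 and 11 counts in naive wt, 0, 1 and 0 in naive KI, 0, 1 and 0 in wt at 48 h and 25, 54 and 23 in KI at 48 h. P2ry2, a receptor for extracellular nucleotides, had 5, 24 and 13, then 11, 4 and 6, then 10, 9 and 9, and 36, 53 and 106 counts in the same order. In both genes the KI libraries at 48 h stood above all others. Hormad2 had 3, 8 and 5, then 16, 21 and 12, then 70, 32 and 58, and 7, 7 and 5 counts, highest in wt at 48 h. Zscan30, a transcribed processed pseudogene, had 80, 64 and 51, then 81, 81 and 76, then 8, 7 and 3, and 44, 40 and 20 counts, lowest in wt at 48 h.

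Markers of other cells were summed in the same libraries, again as CPM of the plain library total. B cell markers (8 genes such as Cd79a and Ms4a1) summed to 349 to 552.1 CPM in naive wt and 264.9 to 460 in naive KI, and to 54.57 to 161 in wt and 134.2 to 256.4 in KI at 48 h. Their median interaction was 1.37, with 0 of 8 called. The 3 gamma delta T cell markers summed to 5.48 to 15.7 CPM in wt and 18.2 to 29.1 in KI at 48 h, from 47.5 to 76.32 and 45.96 to 68.95 before, with a median interaction of 1.15. The 4 NK cell markers fell from 19.2 to 63.48 CPM in wt and 24.43 to 38.75 in KI to at most 1.34 and 2.05 CPM, with a median interaction of 2.70. Macrophage, monocyte and dendritic cell markers (10 genes) summed to 14.5 to 24.8 CPM in wt and 15.8 to 22.9 in KI at 48 h, and overlapped, with a median interaction of 0.94. Neutrophil (5 genes), CD4 T cell (4), stromal (4) and erythroid and platelet markers (6) had median interactions of 1.36, 0.43, 1.98 and 0.04. At 48 h neutrophil markers summed to at most 0.145 CPM in wt and 0.1395 in KI, and stromal markers to at most 0.509 and 0.884. Their medians thus rest on few counts. CD4 T cell markers summed to 54.89 to 95.86 CPM in naive wt and 47.87 to 66.35 in naive KI, and to 33.82 to 63.37 in wt and 45.39 to 78.76 in KI at 48 h. No marker of any list was called, and none was at 0 in all 12 libraries. These values stand beside the genes with a higher response in KI, and their part in that result was not tested.

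Lists for the naive state and for effector function held 1 called gene. Of 25 naive, memory and quiescence factors 1 was called higher, Ccr9, against 0.137% of all tested genes. With the block 5 were called higher and 1 lower, against 2.67% and 1.62% of all genes tested in that fit. The list's median response was -1.67 in wt and -1.27 in KI and its median interaction 0.51 (0.78, 0.30 and 0.53 within experiments). The lymph node egress regulators Klf2 and S1pr1 had 1.23 and 1.30, neither of them called (adjusted p 0.248 and 0.474). Of 22 tested effector molecules, cytokines and chemokines 0 were called. Gzmb, the granzyme of killing, rose by 7.17 in wt and 5.90 in KI (-1.27, adjusted p 0.737). Ifng rose by 3.63 and had 1.68 in KI (-1.95, adjusted p 0.556). The chemokine receptor gene Cxcr3 had the smallest p of the list. It had 6.60, 9.84 and 9.58 CPM in naive wt, 9.77, 11.1 and 9.23 in naive KI, 3.54, 4.31 and 3.32 in wt and 11.7, 12.3 and 13.9 in KI at 48 h (1.55, adjusted p 0.312, and 0.00634 with the block, within 0.00634 to 1 over its alternatives). The list's median interaction of 0.47 was 0.67 without Gzmf and Il3, which had a group with 0 counts. It was -0.19 without the wt mouse of experiment 3 and -0.10 without the KI mouse of experiment 5. It was 0.83 and 0.94 without the KI mouse of experiment 3 and the wt mouse of experiment 5.

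Of 19 effector fate and activation transcription factors 0 were called. Id2, which favours effector fate, fell from 110.3, 111 and 116 to 16.8, 18.1 and 28.7 CPM in wt and from 91.9, 94.3 and 84.8 to 40.8, 28.3 and 41.98 CPM in KI (1.119, adjusted p 0.0808, and 0.00521 with the block, within 0.00521 to 1 over its alternatives). Among 23 immediate early genes 0 were called. Nr4a3, a nuclear receptor induced by T cell receptor signals, rose from 11.8, 15.4 and 12.6 to 463, 586 and 459.9 CPM in wt and from 11.9, 14.4 and 12.8 to 114, 292 and 222 CPM in KI (-1.24, adjusted p 0.23).

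Genes of mitosis and DNA replication rose in both genotypes. Mitosis genes had a median response of 5.91 in wt and 5.69 in KI, all 24 called higher in both (29.5% of all tested genes in wt and 26.6% in KI), and a median interaction of -0.21 with 0 called. DNA replication genes had 3.09 and 2.79, all 30 called higher in both, and -0.22 with 0 called. For Cenpe, a motor of chromosome alignment, the values were 216, 229 and 186 CPM in wt and 142, 149 and 116 CPM in KI at 48 h (-0.71, SE 0.453, adjusted p 0.67, and 0.0393 with the block, within 0.0393 to 1 over its alternatives). Orc6, of the origin recognition complex, had -0.49 (SE 0.198, adjusted p 0.395). In the list of G1 cyclins, kinases and CDK inhibitors (0 of 14 called) Cdkn1a, the CDK inhibitor p21, rose to 82.1, 74.97 and 194 CPM in wt and 23.6, 39.9 and 50.5 CPM in KI (-1.79, SE 0.685, adjusted p 0.358, and 0.00202 with the block, within 0.00202 to 1 over its alternatives). Ribosome biogenesis had a median interaction of -0.24 with 0 of 30 called, Wdr12 having the smallest p (-0.54, adjusted p 0.445). That median was -0.45 without the wt mouse of experiment 3, -0.39 and -0.08 without the KI and the wt mouse of experiment 5 and -0.16 without the KI mouse of experiment 1. A p that misses the threshold does not show equal responses.

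Mitochondrial and stress lists held no called gene either. Nuclear genes of the respiratory chain and ATP synthase had a median response of 0.84 in wt and 0.70 in KI and a median interaction of -0.11 (0 of 44 called), which was -0.02 and -0.07 without the KI and the wt mouse of experiment 3 and -0.20 without the KI mouse of experiment 5. The one with the smallest p was Uqcrfs1, the Rieske subunit of complex III (-0.45, adjusted p 0.288). The 12 tested protein-coding genes of the mitochondrial genome had a median interaction of 0.44, with 0.34, -0.06 and 0.94 within experiments 1, 3 and 5. The wt naive library of experiment 5 had the highest mitochondrial share, and without that wt mouse the median was 0.16. In mt-Nd3 no library exceeded 0.161 CPM, so no fold is given, and the median without it was 0.47. Of 25 genes of mitochondria-ER contact and calcium transfer, a process named in the series title, 0 were called and the median was -0.18. Osbpl5, a lipid transfer protein of such contacts, fell by 1.94 in wt and by 1.49 in KI (0.45, SE 0.189, adjusted p 0.429). Mitochondrial fatty acid oxidation had a median of -0.18 (0 of 18 called), which was -0.05 without the wt mouse of experiment 3 and -0.31 without that of experiment 5. In this list Etfa, which carries electrons from the dehydrogenases, had -0.59 (adjusted p 0.204, and 0.0291 with the block, within 0.0291 to 1 over its alternatives). Serine and folate one-carbon enzymes (0 of 14) had -0.31, and -0.18 without the wt mouse of experiment 1. Amino acid transport (0 of 12) had -0.09 (-0.06 without the KI mouse of experiment 1, -0.18 without the wt mouse of experiment 3 and -0.17 without the KI mouse of experiment 5), led by the leucine transporter gene Slc7a5 (-0.60, adjusted p 0.561). The unfolded protein and stress response (0 of 25) had -0.24, and -0.09 without the wt mouse of experiment 1, led by Xbp1 (-0.88, adjusted p 0.359, and 0.0105 with the block, within 0.0105 to 1 over its alternatives).

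**Figure D5:**
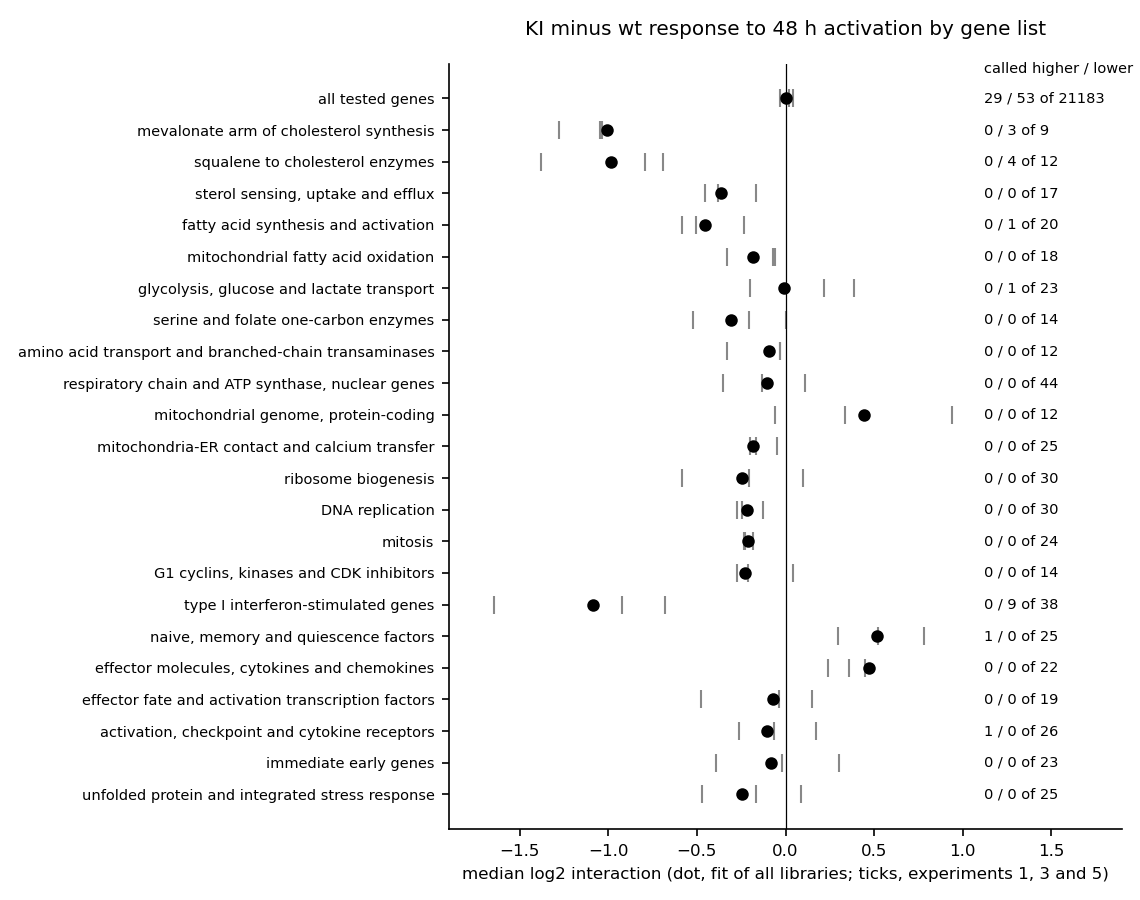
Median log2 interaction of each gene list (dot) with its median within experiments 1, 3 and 5 (ticks), all tested genes at the top, and the number called higher and lower of those tested at the right. Both cholesterol arms and the interferon-stimulated genes lie near -1 with every tick below 0, and the other lists lie between -0.46 and 0.51.

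The response to 24 h uses the same naive libraries, so its values are set beside those at 48 h. From naive to 24 h edgeR called 0 genes with a different response in KI and wt, while 694 had an unadjusted p under 0.05. Oas3 had an interaction of -1.003 at 24 h and -2.22 at 48 h, and Usp18 -0.62 and -1.84. Mvd had -0.28 and -1.68, Fdps -0.53 and -1.66, P2rx7 0.25 and 2.44, and Cxcr6 0.69 and 2.29. Zfp365 (-1.47 and -1.33) and Mlkl (-2.22 and -2.65) had values of like size at both times. Tcaim had 1.25 and 1.33. The list medians at 24 h were -0.52 for interferon-stimulated genes, -0.38 and -0.49 for the arms of cholesterol synthesis, and 0.38 for naive, memory and quiescence factors. Mitosis had -0.70 at 24 h and -0.21 at 48 h, and DNA replication -0.46 and -0.22. The change from 24 h to 48 h was tested directly and called 1 gene of 21183 (0.00472%), Mvd, with 1199 at an unadjusted p under 0.05. It went from 26.3, 26.3 and 20.1 to 61.4, 56.8 and 44.7 CPM in wt and from 20.1, 20.3 and 23.1 to 16.9, 19.7 and 17.1 CPM in KI, a difference of -1.41 (SE 0.198, adjusted p 0.0216). For Oas3 and Fdps that difference was -1.22 and -1.13 and was not called (adjusted p 0.18 and 0.273).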

How the data were processed

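Poly(A) RNA of mouse CD8+ T cells was sequenced with a stranded kit, per the labels' protocols. The authors deposited raw read counts per gene, with no normalization. TopHat2 2.1.0, Bowtie2 2.2.5, SAMtools 0.1.19, featureCounts, DESeq2 1.6.3 and the builds GRCm38 and mm10 are named in the submitters' processing notes, and the strand setting of the counting is not given in the sources used here. A second table deposited by the authors holds log2 values. By comparison with the counts these are log2 of the count divided by a size factor per library, plus 1. Of that table only the gene symbols (14321 tested genes), positions, strands and gene types were used. The GENCODE M21 annotation of GRCm38 gave symbols for 6713 others, and 149 had none.

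All 22 libraries, including 4 labelled KO, were fitted as 8 group means with edgeR 4.0.16 (R 4.3.3, filterByExpr with a minimum count of 10 and minimum total of 15, TMM factors, robust quasi-likelihood test, 14 residual degrees of freedom). p-values were adjusted by Benjamini-Hochberg over all 21183 tested genes and called under 0.05. CPM of single genes are counts scaled by TMM-adjusted totals, and summed CPM of markers are scaled by plain library totals. The script was tested on simulated data. Each KI and wt group has 1 library from each of 3 mice, and the KO groups have fewer mice. No pair of replicates agreed within sampling noise.

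Experiment numbers pair the mice by label. Deviations from group means correlated within the same experiment and time in KI and wt (median r 0.228 over 6 pairs, 0.0907 to 0.371) and within the same mouse (median r 0.154 over 6 pairs, 0.105 to 0.289). Across experiments the median was -0.138 for KI and wt at the same time. It was -0.098 for naive and 48 h libraries of other mice of the same genotype. Deviations within a group sum to 0, so these values below 0 follow in large part from those above 0. Values within experiments are differences of log2 CPM with a prior count of 2.

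The members and gene lists were chosen with earlier results of these data known. Genes were named by rule, namely Tcaim, the 12 smallest p and the 6 largest changes in each direction among called genes with 1 sign in 3 experiments, up to 6 per response class, and up to 4 called members per list or else the smallest p. The rule named 59 genes, 44 of them called. Other genes were named after their values were seen. A few genes are not reported here. Alternatives were RLE or upper-quartile factors, no filter, fewer libraries, limma-voom (limma 3.58.1), DESeq2 1.42.0, blocks for experiment and mouse, and leaving out mice. Promoter sequences are from RefSeq.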

Additional observations from a re-analysis of the deposited data

Results flagged for a closer look

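The response to 48 h of activation differed between the KI and wt genotypes by a test of the difference itself, with 82 genes called by edgeR's quasi-likelihood test. The change from 24 h to 48 h also differed between the genotypes by such a test for Mvd, with -1.41 on the log2 scale.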

How the results depend on the processing

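Against 82 genes called, edgeR called 139 with only the 12 libraries of the contrast (65 of the 82 among them), 258 without the libraries labelled KO and 185 with mouse as a block (76 of the 82). DESeq2 called 358. With the pairing used as a block for mouse and for experiment by time, 869 were called. DESeq2, that block and the fit without the libraries labelled KO each held all 82. Genes with a higher KI response made up 35.4% of calls, 53% with the mouse block and 62.3% with the full block. They made up 52% without the wt mouse of experiment 3. RLE factors (85), upper-quartile factors (83), no filter (64), limma-voom (62) and experiment as a block (108) stayed within 1.5 times. Leaving out mice gave 0 to 98 calls, the 0 without both mice of experiment 1, where 616 genes had an unadjusted p under 0.05. None of the 44 called named genes changed sign under any of the 19 alternatives. All of them had the same sign in the 3 experiments when named, so a change of sign was unlikely from the start. The block for mouse and experiment by time ended the call of none of them. Leaving out 1 mouse ended 11 (wt mouse of experiment 3) to 43 (KI mouse of experiment 1) of the 44 calls.

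With mice left out, the median interaction ranged from -1.181 to -0.886 in the mevalonate arm and from -0.364 to -0.189 in sterol sensing, uptake and efflux. It ranged from -0.157 to 0.298 in glycolysis, from -0.283 to -0.010 in amino acid transport and from -0.281 to -0.152 in mitosis, which had -0.171 with upper-quartile factors. For activation receptors it was -0.242 to 0.122 and for immediate early genes -0.307 to 0.288. The effector list ranged from -0.188 to 0.935. It had 0.661 with only the 12 libraries, 0.659 without the libraries labelled KO, 0.363 with the replicate block for experiment, 0.362 with that for mouse and 0.645 with that for mouse and experiment by time. The cause of these shifts was not tested. With 3 mice a group, low-count genes such as Pappa2 rest on few reads. The p-values of the main fit rest on the spread within the 8 groups of all 22 libraries, those labelled KO included. That fit treats libraries of the same mouse as independent. Its p-values do not cover mice or cultures beyond these.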
